A study of Mus musculus with 6 samples.

Results

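The proteasome genes of a mouse macrophage line were compared between cells grown on 2 hydrogels. They were taken as all rows of the deposited table whose symbol begins with Psma, Psmb, Psmc, Psmd or Psme followed by a number and at most 1 letter, which gave 44 of 56691 genes. The immunoproteasome group was Psmb8, Psmb9, Psmb10, Psme1 and Psme2, and the other 39 genes were mostly constitutive subunits. RNA was sequenced from 3 MSA-DA libraries and 3 MSA-ZW libraries. Cells of the line written as RAW246.7 in the labels, of WT genotype, had been pretreated with LPS (lipopolysaccharide, a bacterial cell wall component) and then spent 24 h on MSA-DA hydrogels or on MSA-ZW hydrogels. LPS pretreatment was thus shared by both groups, and no library without LPS or without a gel was analysed here. The series title names the question of how fibrin networks formed on macroporous gels with different protein absorption affect macrophage function. All libraries came from 1 cell line, and the labels do not tell whether replicates were separate cultures. The p-values therefore speak only of the spread between these libraries, which may be technical.

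Count totals were 14374912 to 18346615 on MSA-DA and 16347934 to 18193026 on MSA-ZW. All 9 macrophage markers had at least 1 FPKM (counts scaled to gene length and library total) in every library. Their summed level was 2307 to 2345 FPKM on MSA-DA and 2704 to 2753 FPKM on MSA-ZW, with Lyz2, the gene for lysozyme, at 1323 to 1358 FPKM on MSA-DA and 1728 to 1769 FPKM on MSA-ZW. The 3 T cell, 3 B cell, 3 fibroblast and 3 dendritic cell markers were under 1 FPKM in every library. Of the 3 neutrophil markers Mpo was at 0, Ly6g was at most 0.06 FPKM on MSA-DA and at 0 on MSA-ZW, and the neutrophil sum, all from S100a8 or nearly so, was 1.9 to 2.55 FPKM on MSA-DA against 1.83 to 1.98 FPKM on MSA-ZW. The macrophage sum was lower on MSA-DA, as the immunoproteasome genes were, mostly through Lyz2 and Csf1r (161 to 163 FPKM on MSA-DA and 186 to 189 FPKM on MSA-ZW). Other macrophage markers were higher on MSA-DA without overlap, namely Cd68 (483 to 485 FPKM on MSA-DA and 463 to 473 FPKM on MSA-ZW), Itgam and Ptprc. The part of these levels in the immunoproteasome differences was not tested. In bulk RNA, fewer cells expressing a gene and less RNA of it per cell cannot be told apart.

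The proteasome is the barrel-shaped protease that degrades ubiquitin-tagged proteins in the cytosol and nucleus. Its core, the 20S particle, is a stack of alpha and beta rings, and only some beta subunits cut peptide bonds. The 19S particle caps the core, binds ubiquitin chains and unfolds substrates. In cells exposed to interferon, and in many immune cells at rest, the catalytic subunits Psmb5, Psmb6 and Psmb7 can be replaced in newly built cores by Psmb8, Psmb9 and Psmb10. The resulting immunoproteasome, together with the Psme1 and Psme2 activator ring, is known for making peptides that fit MHC class I molecules.

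All 5 immunoproteasome genes were lower on MSA-DA, by 7.26% to 26.3%, while 7 of the other 38 tested genes were lower and none of the 43 tested genes rose. The 7 were Psmc4, Psmb3, Psmc3, Psmb7, Psmd3 and Psma7 of the core and cap, and Psme2b, a copy of Psme2. The median log2 difference, MSA-DA minus MSA-ZW, was -0.23 over the 5 immunoproteasome genes and -0.04 over the other 38, beside 0.000848 over all 12467 genes tested. Across all tested genes 6.5% were called lower and 6.92% higher (edgeR quasi-likelihood test on counts, adjusted p under 0.05). Most proteasome genes are abundant: 37 of the 43 averaged at least 64 CPM (counts scaled to the library total), and among the 3695 genes of that depth 12.4% were called lower and 14.3% higher. At an unadjusted p under 0.05, 18 proteasome genes were lower and 4 higher. DESeq2 called 0 higher, with 1 at an unadjusted p under 0.05, and 8 lower, 4 of the 5 immunoproteasome genes and 4 others (6.49% and 6.03% of all genes higher and lower). Limma on log2(FPKM + 1) called 0 higher, with 2 at an unadjusted p under 0.05, and 9 lower (3.83% and 4.51% of all genes). Without a filter on low values limma called 6 lower, beside 0.897% of all genes. With each library left out in turn, the count of lower calls was 7 without MSA-DA replicate 2 (4.16% of all genes) and up to 13 without MSA-ZW replicate 1 (5.47%). Psmb8, Psmb10, Psme1 and Psmc4 were called lower in all 15 alternative fits.

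**Figure D1:**
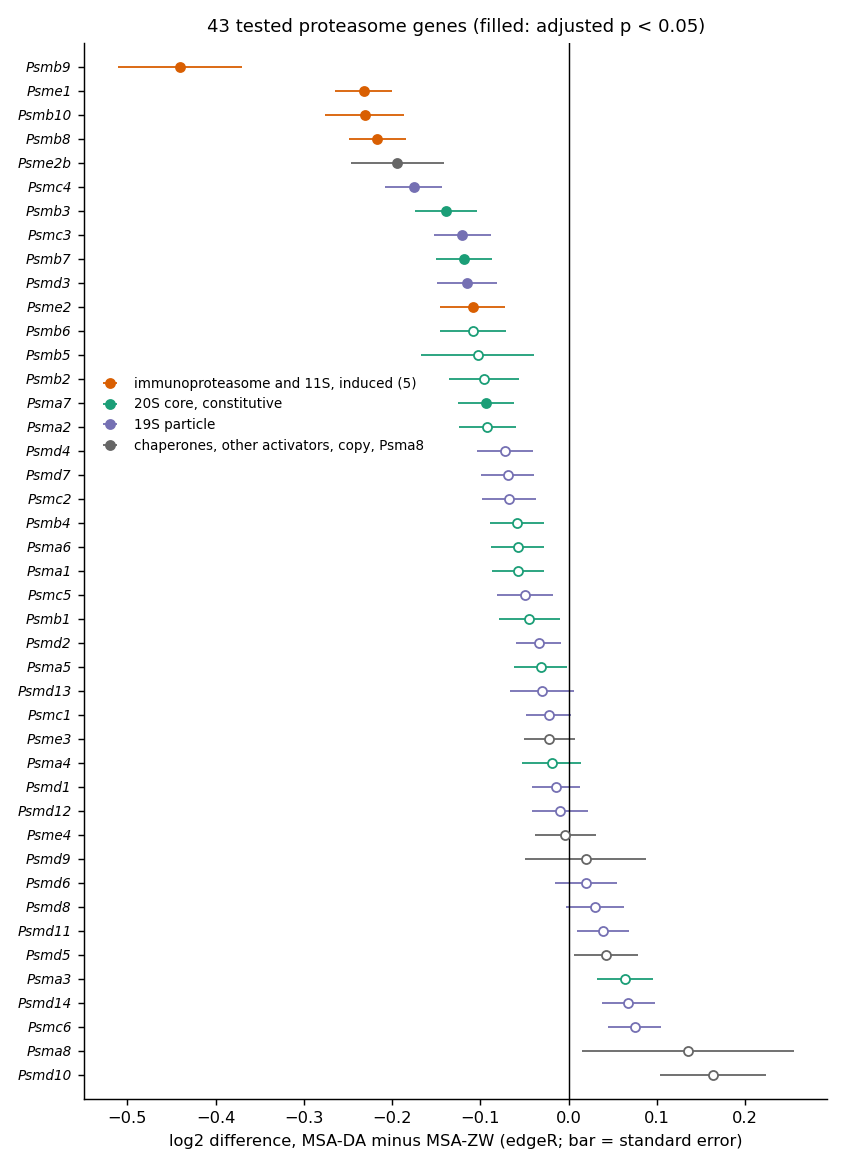
Log2 differences in transcript level, MSA-DA minus MSA-ZW, of the 43 tested proteasome genes, with the standard error of the edgeR fit as bars and 3 libraries per group. Filled points passed an adjusted p of 0.05. Psmb9, Psme1, Psmb10 and Psmb8 lie lowest, at -0.44 to -0.22, and Psmd10 lies highest at 0.16 without passing.

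Psmb8 and Psmb9 stand next to each other in the MHC region of chromosome 17, on either side of the peptide transporter gene Tap1. In the deposited table (GRCm39), Psmb9 (ENSMUSG00000096727) spans 34400961 to 34406738 on the minus strand, Tap1 spans 34406527 to 34416199 on the plus strand and Psmb8 (ENSMUSG00000024338) spans 34416695 to 34420428 on the plus strand. Psmb9 and Tap1 overlap at their 5′ ends by 212 bases on opposite strands, and whether strand was used in counting was not given in the sources used here. Reads in the overlap cannot be assigned. In genomic span, 22 of the 44 members overlap another gene. Among called members, Psmb7 overlaps Nek6 (6571 bases) and Psmc3 overlaps Slc39a13 (4579 bases), both on opposite strands. Psme2b overlaps Gm12185 on the same strand over all its 837 bases. The effect on their counts was not tested. The RefSeq promoter windows of Psmb9 and Tap1 (250 bases before to 50 after each start, build GRCm38.p6) also coincide. Of the 300 bases of the Psmb9 window, 275 are the reverse complement of the Tap1 window. The Psmb9 window is shown because Psmb9 and Tap1 start from it in opposite directions and both were lower on MSA-DA. The windows of Psmb8 and Psme1 are shown because each holds a match to a motif of interferon-regulated genes. Each is written 5′ to 3′ on the strand of its gene, and capitals mark motif matches.
Psmb9, chr17:34187281-34187580, minus strand, no match: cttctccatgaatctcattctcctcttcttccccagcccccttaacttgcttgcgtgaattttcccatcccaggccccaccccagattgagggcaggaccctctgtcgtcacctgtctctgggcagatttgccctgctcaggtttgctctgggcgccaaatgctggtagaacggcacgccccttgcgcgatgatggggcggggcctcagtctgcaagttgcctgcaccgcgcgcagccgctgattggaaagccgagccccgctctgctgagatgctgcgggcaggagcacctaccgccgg
Psmb8, chr17:34197945-34198244, plus strand, GAS match in capitals: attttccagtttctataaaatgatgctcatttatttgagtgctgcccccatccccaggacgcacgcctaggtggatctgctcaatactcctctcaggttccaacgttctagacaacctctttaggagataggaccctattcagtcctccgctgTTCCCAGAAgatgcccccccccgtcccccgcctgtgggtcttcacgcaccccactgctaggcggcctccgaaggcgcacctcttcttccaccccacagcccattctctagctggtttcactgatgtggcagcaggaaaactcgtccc
Psme1, chr14:55578244-55578543, plus strand, ISRE match in capitals: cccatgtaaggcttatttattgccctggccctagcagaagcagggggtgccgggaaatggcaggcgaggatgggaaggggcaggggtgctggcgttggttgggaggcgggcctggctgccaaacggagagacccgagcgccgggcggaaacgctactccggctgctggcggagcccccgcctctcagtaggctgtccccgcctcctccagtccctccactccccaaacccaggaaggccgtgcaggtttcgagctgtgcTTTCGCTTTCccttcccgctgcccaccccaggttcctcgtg

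Both strands of 32851 such windows were searched for 3 motifs, none of which contains another. The core of the interferon-stimulated response element (ISRE), read as GAAA, any 2 bases and GAAA and bound by IRF proteins, was in 3.44% of all windows. It was found in those of Psme1, Psmb3, Psmd4 and Psmd9, among 37 proteasome genes with a window. The gamma-activated site (GAS), the letters TTCNNNGAA bound by STAT proteins, was in 8.3% of all windows and in those of Psmb8 and Psmd2. The antioxidant response element, TGACNNNGC, bound by NFE2L1 and NFE2L2, was in 12.4% of all windows and in those of Psmb5, Psmb6, Psmc6, Psmd12, Psmd9 and Psme4. A match describes letters in a window and does not show binding. Genes with an ISRE or GAS match fell on both sides of the call, with Psme1, Psmb8 and Psmb3 lower and Psmd4, Psmd9 and Psmd2 not passing. No gene with an antioxidant response element match passed.

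The largest difference was that of Psmb9, also known as LMP2, the induced subunit that takes the place of Psmb6. Its level was 7.09, 6.70 and 7.43 FPKM in the MSA-DA libraries and 8.91, 9.38 and 10.6 FPKM in the MSA-ZW libraries. The groups did not overlap, and MSA-ZW replicate 3 was the highest. Psmb9 was 26.3% lower on MSA-DA, with a log2 difference of -0.44 and a standard error of 0.07 (edgeR adjusted p = 2.68e-05). The call was lost with limma without a filter on low values (adjusted p = 0.0573) and with no other alternative run. Its raw counts were modest, 373 to 450 on MSA-DA and 538 to 703 on MSA-ZW.

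Psmb8, or LMP7, is the induced counterpart of Psmb5. It stood at 49.3, 49.2 and 48.5 FPKM on MSA-DA and at 58.0, 54.6 and 59.1 FPKM on MSA-ZW. The MSA-DA libraries lay close together and all below the MSA-ZW libraries, and Psmb8 was 13.9% lower (log2 difference -0.22, standard error 0.03, edgeR adjusted p = 9.64e-06). Psmb10, or MECL-1 (ENSMUSG00000031897, chromosome 8, 106662367 to 106665076, GRCm39), takes the place of Psmb7. Its level was 38.6, 38.2 and 37.0 FPKM on MSA-DA and 45.9, 42.5 and 45.9 FPKM on MSA-ZW. It was 14.8% lower, again without overlap (log2 difference -0.23, standard error 0.04, edgeR adjusted p = 0.000377).

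Psme1 and Psme2 encode the alpha and beta chains of the 11S activator, or PA28, a ring that opens the gate of the core without ubiquitin. They lie 5911 bases apart on chromosome 14, Psme1 (ENSMUSG00000022216) on the plus strand at 55815580 to 55818986 and Psme2 (ENSMUSG00000079197) on the minus strand at 55824898 to 55828570 (GRCm39). Psme1 stood at 90.7, 84.0 and 90.7 FPKM on MSA-DA and 104, 103 and 106 FPKM on MSA-ZW. It was 14.9% lower, with no overlap between the groups (log2 difference -0.23, standard error 0.03, edgeR adjusted p = 2.85e-06). Psme2 showed a smaller difference, with 70.6, 71.1 and 70.9 FPKM on MSA-DA and 72.9, 76.6 and 80.8 FPKM on MSA-ZW. The groups did not overlap, but the MSA-ZW libraries were spread and the lowest of them was close to the MSA-DA libraries. Its 7.26% fall had a log2 difference of -0.11 and a standard error of 0.04 (edgeR adjusted p = 0.0429). This call was lost with DESeq2 (adjusted p = 0.119), with limma, after GC correction and in edgeR without a filter on low counts (adjusted p = 0.0553). It was also lost without MSA-ZW replicate 3 (log2 difference -0.07, edgeR adjusted p = 0.221) or any library but MSA-ZW replicate 1 (0.0894 to 0.221).

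Psme2 values carry a further uncertainty from Psme2b, a copy on chromosome 11 at 48836181 to 48837017 (GRCm39). In the GENCODE M21 transcripts, 789 of 794 aligned bases of Psme2 and Psme2b were identical (99.4%), and the exonic length of Psme2b in the table, 837 bases, equals its genomic span, as for a gene without introns. Reads from such a pair can be shared. Psme2b stood at 52.2, 48.5 and 50.6 FPKM on MSA-DA and 57.1, 57.9 and 58.6 FPKM on MSA-ZW, which is 12.6% lower on MSA-DA (edgeR adjusted p = 0.0116). This call was lost with DESeq2 and without MSA-DA replicate 2 (adjusted p = 0.0831). With the counts of both genes added up, the log2 difference was -0.13 (edgeR adjusted p = 0.006).

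**Figure D2:**
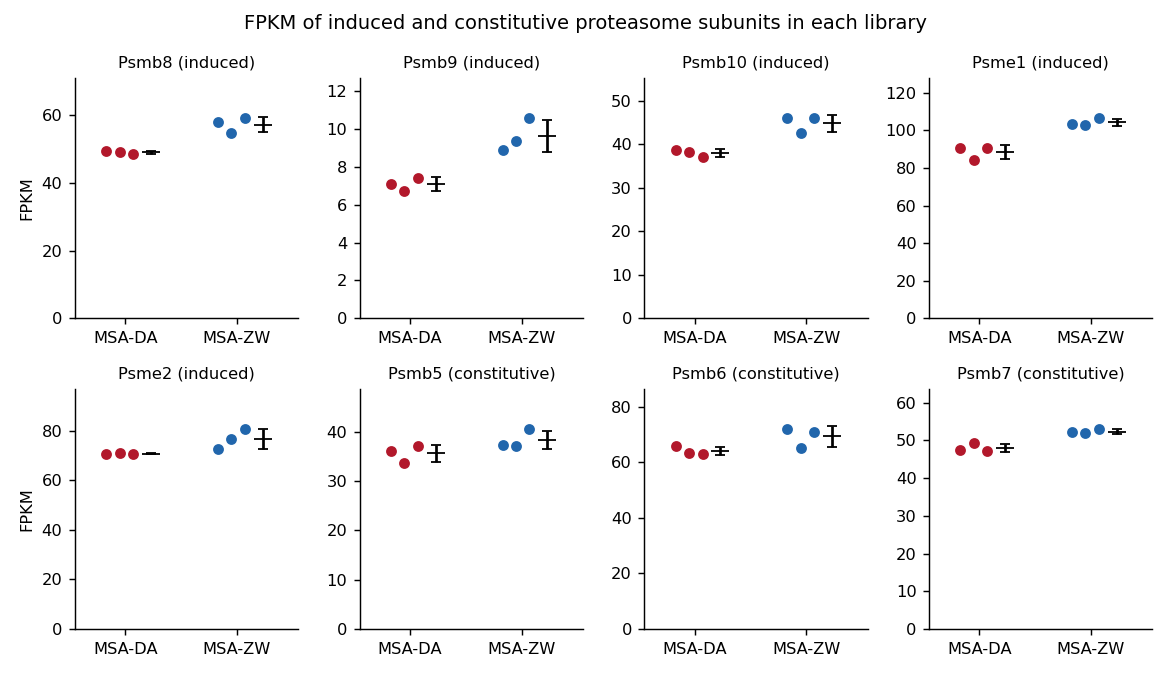
Deposited FPKM of the 5 immunoproteasome genes and of the 3 constitutive catalytic genes, 1 point per library, with the mean and SD of 3 libraries beside the points. All MSA-DA libraries lie below all MSA-ZW libraries for each of the 5 induced genes and for Psmb7, and the groups overlap for Psmb6. For Psmb5 the highest MSA-DA library, at 37.14 FPKM, is level with the lowest MSA-ZW library, at 37.15 FPKM.

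The constitutive catalytic subunits had log2 differences of -0.12 to -0.10, and only Psmb7 passed. On the counts as deposited each was smaller in size than that of its induced partner, but with an offset for GC content and length fitted in each library Psmb7 stood at -0.19, beside -0.17 for Psmb10. Psmb7, which cuts after basic residues, had 47.4, 49.3 and 47.2 FPKM on MSA-DA and 52.1, 51.9 and 53.0 FPKM on MSA-ZW. It was 7.87% lower without overlap (log2 difference -0.12, standard error 0.03, edgeR adjusted p = 0.00947). The Psmb7 call was lost without MSA-DA replicate 3 (edgeR adjusted p = 0.0568) and with limma without a filter on low values (adjusted p = 0.0599). Psmb6, the caspase-like subunit, had 65.8, 63.4 and 63.2 FPKM on MSA-DA and 72.0, 65.2 and 71.1 FPKM on MSA-ZW. Its groups overlapped through MSA-ZW replicate 2, and its log2 difference of -0.11 (standard error 0.04) missed the threshold (edgeR adjusted p = 0.0518). It passed without that library (edgeR adjusted p = 0.00975), while the fits without any other library gave 0.0516 to 0.199 and DESeq2 gave 0.136. With all libraries Psmb6 also passed narrowly in edgeR under another scaling (adjusted p = 0.0489). The same held with ribosomal RNA-like and mitochondrial loci left out (edgeR adjusted p = 0.0423). Psmb5, the chymotrypsin-like subunit, had 36.1, 33.7 and 37.1 FPKM on MSA-DA and 37.4, 37.2 and 40.6 FPKM on MSA-ZW. The highest MSA-DA library was level with the lowest MSA-ZW library, and the log2 difference of -0.10 had a large standard error of 0.06 (edgeR adjusted p = 0.333).

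Levels per gene length were used to set each induced subunit against the one it replaces within a library. The Psmb9 to Psmb6 ratio of FPKM was 0.108, 0.106 and 0.118 on MSA-DA and 0.124, 0.144 and 0.149 on MSA-ZW, and the groups did not overlap. Its mean was 0.110 ± 0.00636 on MSA-DA and 0.139 ± 0.0133 on MSA-ZW (n = 3, SD), a log2 difference of -0.33 (2-sided exact permutation p = 0.1, the smallest that 3 against 3 allows, and 0.15 adjusted over the 3 ratios). The Psmb10 to Psmb7 ratio was 0.815, 0.776 and 0.784 on MSA-DA and 0.881, 0.819 and 0.865 on MSA-ZW, again without overlap (log2 difference -0.11, 2-sided exact permutation p = 0.1, adjusted 0.15). This direction was lost with the GC and length offset, where the difference between the log2 differences of Psmb10 and Psmb7 was 0.02, while it was -0.31 for Psmb9 and Psmb6 and -0.15 for Psmb8 and Psmb5. The Psmb8 to Psmb5 ratio was 1.37, 1.46 and 1.31 on MSA-DA and 1.55, 1.47 and 1.45 on MSA-ZW, and here the groups overlapped (log2 difference -0.12, 2-sided exact permutation p = 0.2, adjusted 0.2).

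The exact test could not pass a threshold of 0.05 for any of the 3 ratios at this number of libraries. Summed over the 6 catalytic genes, the induced genes made up 38.9%, 39.1% and 38.7% of the FPKM on MSA-DA and 41.1%, 40.9% and 41.2% on MSA-ZW. The 3 MSA-DA shares all lay below the 3 MSA-ZW shares. On both gels Psmb8 stood above Psmb5 in FPKM and Psmb9 far below Psmb6, and raw counts had the same order. The sizes of these ratios and shares depend on the deposited exonic lengths. These were 3381 bases for Psmb8, 899 for Psmb5, 3660 for Psmb9 and 1872 for Psmb6. The log2 differences of the ratios between gels do not depend on them.

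**Figure D3:**
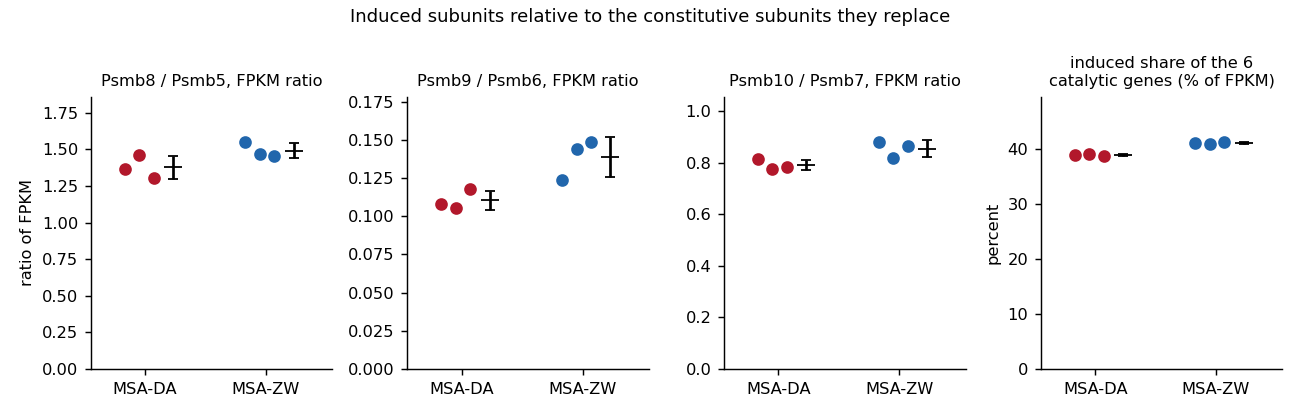
FPKM ratio of each induced catalytic gene to its constitutive counterpart, and the percent of the summed FPKM of the 6 catalytic genes that came from the induced ones, 1 point per library with mean and SD of 3. MSA-DA libraries lie below MSA-ZW libraries for Psmb9 to Psmb6 (0.106 to 0.118 against 0.124 to 0.149), for Psmb10 to Psmb7 and for the induced share, and they overlap for Psmb8 to Psmb5.

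In the rest of the 20S core, 1 of the 4 non-catalytic beta subunits and 1 of the 8 alpha subunits fell. Across all tested genes 6.5% were called lower, and 12.4% of those of at least 64 CPM. Psmb3, a structural beta subunit, had 49.7, 48.2 and 50.7 FPKM on MSA-DA and 54.8, 55.4 and 54.1 FPKM on MSA-ZW, which is 9.18% lower (log2 difference -0.14, edgeR adjusted p = 0.00643). The groups stood apart, but the call was lost without MSA-DA replicate 2 (adjusted p = 0.0614). Psma7, an alpha subunit, was 6.29% lower, with 60.2, 58.2 and 57.6 FPKM on MSA-DA and 61.2, 62.7 and 64.7 FPKM on MSA-ZW (edgeR adjusted p = 0.0461). That value was at the threshold: the call was lost in 11 of 15 alternative fits, among them DESeq2, all limma fits, the GC correction and the fits without MSA-DA replicate 2 or 3 or MSA-ZW replicate 2 or 3.

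Of the 14 constitutive core genes of somatic cells, 13 had a negative log2 difference, with differences between -0.14 and 0.06. Of the 14, 3 passed as lower, beside 6.5% of all tested genes and 12.4% of those of at least 64 CPM. The summed FPKM of these 14 was 1225, 1219 and 1225 on MSA-DA and 1262, 1274 and 1309 on MSA-ZW. The exception in sign, not kept with the GC and length offset, was Psma3, with 46.7 ± 0.791 FPKM on MSA-DA and 44.9 ± 0.988 FPKM on MSA-ZW (n = 3, SD, edgeR adjusted p = 0.198). Psma8, an alpha subunit known from the testis, was low in all libraries, with 3.19 ± 0.197 FPKM on MSA-DA and 2.93 ± 0.196 FPKM on MSA-ZW (n = 3, SD, edgeR adjusted p = 0.536). Psmb11, the subunit of the thymoproteasome of cortical thymic epithelium, had 0, 0 and 2 counts on MSA-DA and 0 in each MSA-ZW library, and it was the 1 gene of the 44 that could not be tested.

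In the 19S cap, 3 of 17 particle subunits fell, beside 6.5% of all tested genes and 12.4% of those of at least 64 CPM. The median log2 difference of the 17 was -0.03. The falls were in the ATPases Psmc4 and Psmc3, which form part of the unfolding ring, and in the lid subunit Psmd3. Psmc4 (ENSMUSG00000030603, chromosome 7, 27741132 to 27749526, GRCm39) had 63.3, 63.6 and 63.8 FPKM on MSA-DA and 71.8, 73.2 and 71.5 FPKM on MSA-ZW. Both groups were tight and well apart, and Psmc4 was 11.4% lower (log2 difference -0.18, standard error 0.03, edgeR adjusted p = 0.000206). Psmc3 had 84.2, 82.9 and 84.8 FPKM on MSA-DA and 87.0, 92.6 and 95.5 FPKM on MSA-ZW (8% lower, edgeR adjusted p = 0.0102), a call lost with limma, after GC correction and without MSA-DA replicate 2 (adjusted p = 0.0693). Psmd3 had 24.3, 25.0 and 24.3 FPKM on MSA-DA and 26.3, 27.1 and 26.7 FPKM on MSA-ZW (7.69% lower, edgeR adjusted p = 0.0203). It was not called with DESeq2, after GC correction or without MSA-DA replicate 1 or 3 or MSA-ZW replicate 2 (adjusted p = 0.0634, 0.0782 and 0.0822). Nor was Psmd3 called with limma without a filter on low values (adjusted p = 0.0647).

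The ATPase ring did not move as a block. Psmc4 and Psmc3 fell, Psmc1, Psmc2 and Psmc5 had log2 differences of -0.02, -0.07 and -0.05 without passing, and Psmc6 had the opposite sign, though not with the GC and length offset. Psmc6 had 64, 64.4 and 65.3 FPKM on MSA-DA and 60.5, 62.3 and 62.0 FPKM on MSA-ZW, with the MSA-DA libraries all higher (log2 difference 0.07, edgeR adjusted p = 0.0934). Psmd14, the lid enzyme that removes ubiquitin from substrates, also had its MSA-DA libraries on the high side, at 75.5, 77.8 and 77.8 FPKM on MSA-DA and 72.7, 75.1 and 73.9 FPKM on MSA-ZW (edgeR adjusted p = 0.145). The summed FPKM of the 17 subunits was 1302, 1311 and 1301 on MSA-DA and 1327, 1339 and 1359 on MSA-ZW.

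The 3 assembly chaperones of the cap, Psmd5, Psmd9 and Psmd10, had positive log2 differences of 0.04, 0.02 and 0.16, and none passed. Psmd10, known as gankyrin, had 28.6, 34.3 and 32.3 FPKM on MSA-DA and 30.2, 27.8 and 27.7 FPKM on MSA-ZW, so the groups overlapped (edgeR adjusted p = 0.0684). It was called higher without MSA-DA replicate 1 (log2 difference 0.22, edgeR adjusted p = 0.019, 4.66% of all genes higher) and without MSA-ZW replicate 1 (0.20, edgeR adjusted p = 0.0479, 5.59% higher), whereas without MSA-DA replicate 2 its log2 difference was 0.10 (edgeR adjusted p = 0.46). The activators that are not induced by interferon, Psme3 and Psme4, had log2 differences of -0.02 and -0.004, with adjusted p of 0.701 and 0.966 in edgeR.

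Counted by libraries, the MSA-DA and MSA-ZW FPKM values did not overlap in 24 of the 43 tested genes, 22 of them lower on MSA-DA and 2 higher. The 22 include Psmb5, which stood apart only by 37.14 FPKM on MSA-DA against 37.15 FPKM on MSA-ZW. Over all tested genes 14.7% were lower without overlap and 13.3% higher. Of the 43, 37 averaged at least 64 CPM, and the shares without overlap among all genes of that depth were not computed. The whole group took 0.781%, 0.781% and 0.778% of all counts on MSA-DA and 0.803%, 0.809% and 0.822% on MSA-ZW. The immunoproteasome genes summed to 256, 249 and 255 FPKM on MSA-DA and 289, 286 and 303 FPKM on MSA-ZW, a mean decrease of 13.4%, beside 4.6% for the 14 core genes and 2.74% for the 17 cap genes.

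FPKM levels within the particle were uneven on both gels, although each position in the protein complex is filled in equal number. Psmb5, Psmb6 and Psmb7 share their positions with the induced subunits. Among the 14 core genes Psmb5 and Psmb1 were lowest, Psmb5 at 35.7 ± 1.76 FPKM on MSA-DA and 38.4 ± 1.92 FPKM on MSA-ZW and Psmb1 at 36.8 ± 1.15 FPKM on MSA-DA and 38.1 ± 1.52 FPKM on MSA-ZW (SD, n = 3). Psma6 averaged 215 ± 4.67 FPKM on MSA-DA and 225 ± 5.48 FPKM on MSA-ZW (SD, n = 3), which is 5.85 times Psmb1 on MSA-DA and 5.91 times on MSA-ZW. These ratios depend on the deposited exonic lengths, 4595 bases for Psmb1 and 1234 bases for Psma6. Raw counts lay closer, at 2516 to 3278 for Psmb1 and 3730 to 5176 for Psma6 over all libraries. In the cap the range ran from Psmd3, at 24.5 ± 0.427 FPKM on MSA-DA and 26.7 ± 0.441 FPKM on MSA-ZW, to Psmc1, at 230.4 ± 1.56 FPKM on MSA-DA and 235 ± 1.73 FPKM on MSA-ZW (SD, n = 3). Psma5 and Psma6 did not differ beyond their spread at the top of the core, at 217 ± 7.35 and 215 ± 4.67 FPKM on MSA-DA. Levels in FPKM thus differed several-fold between subunits, to an extent that depends on the exonic lengths used. Between the gels the difference was at most 11.4% within any of these core and cap genes.

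**Figure D4:**
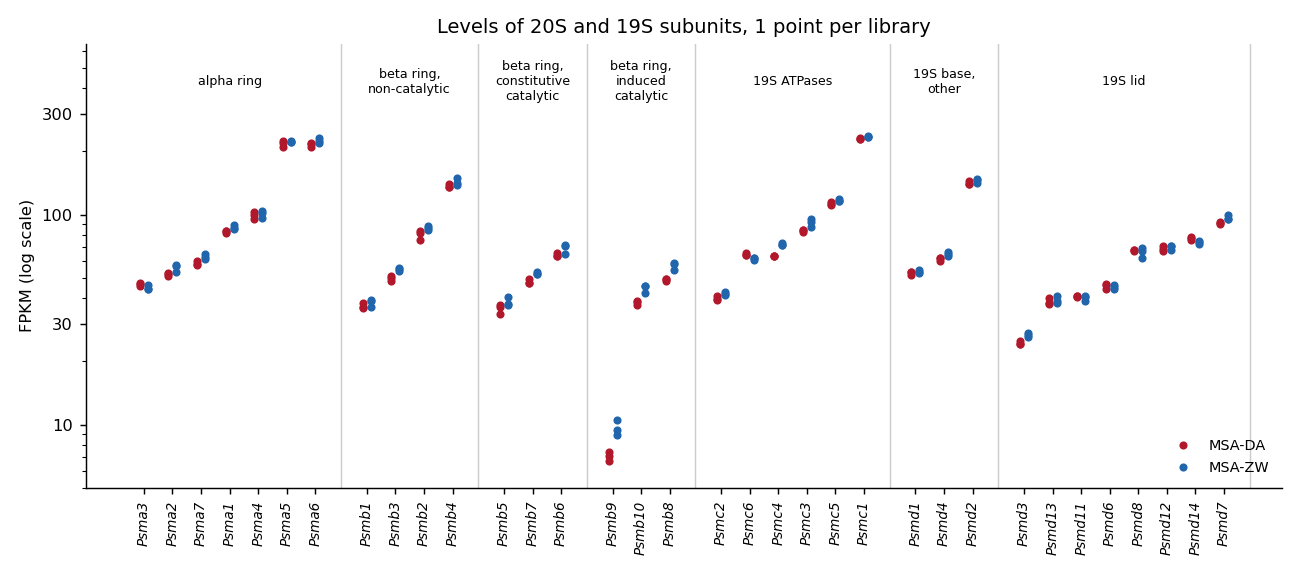
FPKM on a log scale of the 7 somatic alpha, 7 constitutive or structural beta, 3 induced beta and 17 cap subunits, grouped by position in the particle and ordered by level, 1 point per library. Psmb9 is the lowest at 6.70 to 10.6 FPKM, Psmc1 the highest at about 230 FPKM, and the 2 gels differ little within most genes.

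GC content moved with these results. Across the 43 tested genes the log2 difference fell with the GC content of the longest transcript (Spearman rho -0.61, across genes, which are not independent replicates), as it did across all tested genes (rho -0.32). The immunoproteasome transcripts had a median GC content of 54.1%, against 49.3% for the other 38. With an offset for GC content and length fitted in each library, 4 of the 5 immunoproteasome genes were still called lower, with log2 differences of -0.40 for Psmb9, -0.19 for Psmb8 and -0.17 each for Psmb10 and Psme1, and Psme2 was not (-0.08, edgeR adjusted p = 0.18). Their median went to -0.17, while that of the other 38 was -0.04 as before. In that fit 5.07% of all tested genes were called lower and 4.94% higher, and 8 of the other 38 proteasome genes were, of which 4 were shared with the fit on the counts as deposited. Psma7, Psmc3 and Psmd3 dropped out, Psma1, Psma2, Psma6 and Psmc2 came in, and Psmb7 was lower at -0.19 (edgeR adjusted p = 4.01e-05). After the correction Psmc6, Psmd14 and Psma3 had log2 differences of -0.02, 0.02 and -0.003.

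**Figure D5:**
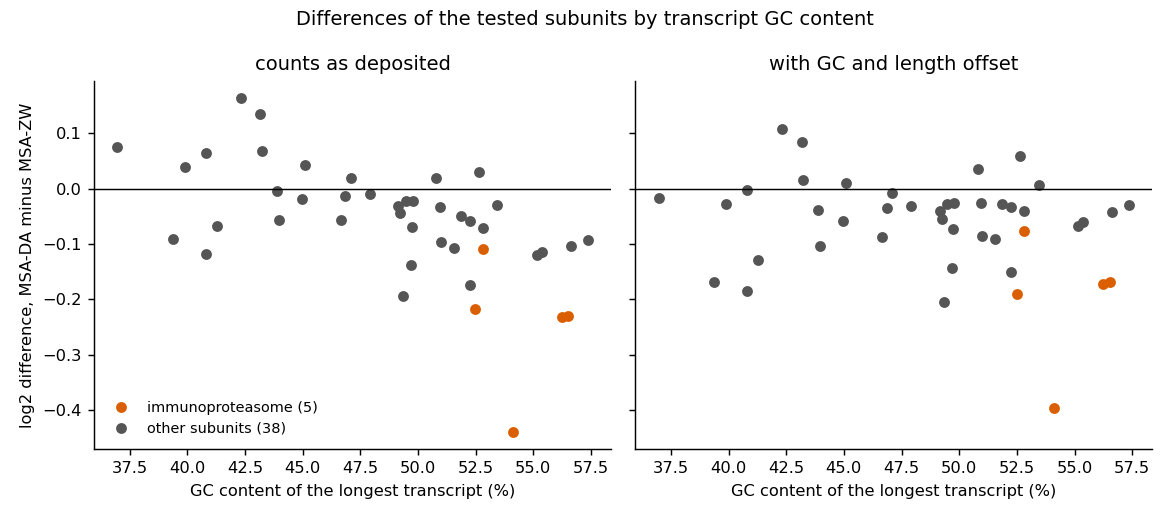
Log2 difference, MSA-DA minus MSA-ZW, against transcript GC content in percent for the 43 tested genes, from the counts as deposited on the left and with the GC and length offset on the right. On the left the points slope down with GC content (rho -0.61). In both panels Psmb9 lies lowest, at -0.44 and -0.40.

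Genes that build, guide or feed the proteasome were counted in 5 further lists, to be read beside the 6.92% of all tested genes called higher and 6.5% called lower, or 14.3% and 12.4% of genes of at least 64 CPM. Of 17 tested assembly and accessory genes, 2 rose and 0 fell in edgeR, where 1 was lower at an unadjusted p under 0.05. DESeq2 called 0 lower and limma on log2(FPKM + 1) called 1. Both that rose encode zinc finger proteins that associate with the particle. Zfand5 averaged 7.28 ± 0.114 FPKM on MSA-DA and 6.22 ± 0.180 FPKM on MSA-ZW (n = 3, SD, 17.5% higher, edgeR adjusted p = 0.000198). Zfand2a averaged 21.8 ± 0.798 FPKM on MSA-DA and 19.2 ± 0.946 FPKM on MSA-ZW (n = 3, SD, edgeR adjusted p = 0.00419), a call lost with limma and without MSA-DA replicate 3 or MSA-ZW replicate 2. The core maturation factor Pomp had a log2 difference of -0.05 (edgeR adjusted p = 0.425).

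Among 12 genes of transcriptional control, 2 rose and 0 fell in edgeR, where 0 were lower at an unadjusted p under 0.05, and DESeq2 and limma also called 0 lower. Nfe2l1, the factor that restores proteasome genes when the protease is inhibited, stood at 39.7, 41.3 and 40.2 FPKM on MSA-DA and 40.3, 40.4 and 40.0 FPKM on MSA-ZW (log2 difference 0.01, standard error 0.03). Nfe2l2, which drives antioxidant genes, had 37.7, 40.4 and 39.0 FPKM on MSA-DA and 34.1, 35.2 and 35.7 FPKM on MSA-ZW (12.3% higher, edgeR adjusted p = 0.000858). Bach1, a repressor at the same DNA element, was 20.6% higher (edgeR adjusted p = 0.00745), a call lost with limma and without MSA-DA replicate 3 or MSA-ZW replicate 1. After GC correction 4 members of this list were called higher.

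Of 15 ubiquitin and shuttle genes, 3 fell and 1 rose. Uba1, the enzyme that activates ubiquitin for most conjugation, had 132, 131 and 129.6 FPKM on MSA-DA and 153, 155 and 157 FPKM on MSA-ZW. The groups stood far apart, and Uba1 was 15.3% lower (log2 difference -0.24, standard error 0.02, edgeR adjusted p = 3.82e-09). The polyubiquitin gene Ubb was 11.4% lower (edgeR adjusted p = 7.5e-05). Sqstm1, which carries ubiquitinated cargo to autophagy, was 7.8% higher (edgeR adjusted p = 0.00199). The count of rises was 2 after GC correction and without MSA-ZW replicate 3.

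Among 12 genes of interferon signalling that regulate the immunoproteasome, 5 fell and 0 rose in edgeR, where 0 were higher at an unadjusted p under 0.05, with a median log2 difference of -0.14. DESeq2 and limma also called 0 of them higher. Irf8, a myeloid transcription factor, had 7.34, 7.60 and 7.83 FPKM on MSA-DA and 9.39, 9.41 and 9.51 FPKM on MSA-ZW (19.1% lower, edgeR adjusted p = 1.19e-05). Stat2, a factor of type I interferon signalling, was 9.24% lower (edgeR adjusted p = 0.00158). Irf1 and Ifngr2, named after their values were seen, were 13.6% and 11.5% lower with adjusted p of 0.0281 and 0.00933 in edgeR. The count was 3 with limma on log2(FPKM + 1) and without MSA-DA replicate 1, MSA-DA replicate 3 or MSA-ZW replicate 2, since Irf1 and Ifngr2 then did not pass. Irf1 lost its call in 10 of 15 alternative fits, among them DESeq2, the GC correction and the fits without each library other than MSA-ZW replicate 1. Nlrc5, the class I transactivator, had a log2 difference of -0.05 (edgeR adjusted p = 0.526).

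Among 11 tested genes of class I and peptide loading, 4 fell and 2 rose, beside 6.5% and 6.92% of all tested genes. Tap1, which starts from the same window as Psmb9, had 19.8, 19.1 and 18.4 FPKM on MSA-DA and 22.7, 22.7 and 22.1 FPKM on MSA-ZW (14.6% lower, edgeR adjusted p = 3.17e-05). H2-K1 and H2-D1, classical class I heavy chains whose values are uncertain because the family holds similar copies, were 10.6% and 8.24% lower (edgeR adjusted p = 0.000757 and 0.000348), H2-D1 not after GC correction. Tap2, named after its value was seen, was 11.5% lower (edgeR adjusted p = 0.0218). The Tap2 call was lost with DESeq2, with limma without a filter, after GC correction and without MSA-DA replicate 2 or MSA-ZW replicate 3. The chaperones of the endoplasmic reticulum Pdia3 and Canx were each 5.55% higher (edgeR adjusted p = 0.00462 and 0.00775), and neither passed after GC correction. The count of rises was 1 with limma and without MSA-DA replicate 1, 2 or 3 or MSA-ZW replicate 2. The count of falls was 7 with ribosomal RNA-like and mitochondrial loci left out (7.03% of all genes lower).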

How the data were processed

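Members and gene lists were chosen with earlier results of these data known. RNA-seq counts and FPKM were deposited by the authors for 6 libraries, per the file headers. The submitters' processing notes name bcl2fastq 2.20.0.422, cutadapt 1.9.1, HISAT2 2.2.1 and GRCm39; which tool counted reads, with what annotation and strand rule, was not given in the sources used here. FPKM values deposited by the authors equal count per gene length and library total within 0.011 in 100% of genes. Raw counts were tested with edgeR 4.0.16 in R 4.3.3 (TMM, filterByExpr, quasi-likelihood, group as the only term; Benjamini-Hochberg over 12467 genes, threshold 0.05). The standard error is the log2 difference divided by the square root of F. Alternatives were DESeq2 1.42.0, limma 3.58.1 on log2(FPKM + 1) or log2(FPKM + 0.1), genes of at least 1 FPKM in at least 3 libraries, other scalings and filters, a GC and length offset (natural splines with 4 degrees of freedom), a replicate block and leaving out each library. Named genes were the immunoproteasome group, Psmb5 to Psmb7, every called member and up to 3 called genes per direction in each list; others named were chosen after their values were seen. Fitting was also tried on simulated data, but no result of that trial is given here, and no value reported above rests on it. Of 44 members, 37 matched a RefSeq promoter window (GRCm38.p6). Paaf1 was not matched in the table under that symbol. No protein sequences were used here. Some genes of the lists are counted but not reported by name here.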

Additional observations from a re-analysis of the deposited data

How the results depend on the processing

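No called gene changed direction under the alternatives tried. With the GC and length offset the uncalled Psmc6, Psma3, Psmd11 and Psmd6 went from positive to negative, at -0.02, -0.003, -0.03 and -0.008. The uncalled Psmd13 went from -0.03 to 0.006. The Psmb10 to Psmb7 contrast, an alternative chosen after seeing the data, became 0.0175 on the log2 scale. The cause of these changes was not tested. Limma on log2(FPKM + 1) without a filter on low values called 6 proteasome genes lower, 3 of them immunoproteasome genes, and 5 genes of the 5 further lists, against 12, 5 and 19. The GC and length offset moved the immunoproteasome median to -0.17. Leaving out 1 library in turn gave 7 to 13 proteasome genes lower, with the lowest count without MSA-DA replicate 2, 0 to 1 higher, 4 to 5 immunoproteasome genes lower, an immunoproteasome median of -0.25 to -0.21 and 14 to 21 genes of the further lists. The ratios then had log2 differences of -0.16 to -0.08 for Psmb8 to Psmb5, -0.41 to -0.28 for Psmb9 to Psmb6 and -0.14 to -0.09 for Psmb10 to Psmb7. Same-numbered libraries of the 2 gels did not deviate together (correlations of -0.0025 to 0.0167 over genes). This cannot tell whether they were prepared in pairs, which the labels do not state. With the replicate number as a block, 12 proteasome genes were called lower, 11 of them among the 12 without it. That fit called 6.12% of all genes lower. Summing Psme2 and Psme2b, chosen after seeing the data, made 1 gene of the pair and gave 11 lower calls (6.49% of all genes). At 3 libraries per group no exact test of a ratio can pass 0.05, and the smallest difference called among proteasome genes was that of Psma7, 6.29%.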
